A study of Macaca mulatta with 2 samples.

Results

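Chromatin and DNA methylation regulators were represented by 5 genes, SETD1B, CBX1, TET2, DEK and BRD10, of the 7904 genes in the deposited tables. They were chosen by name, from the pairing of Ensembl macaque gene identifiers with symbols, after earlier results on these libraries were known. The contrast between the libraries was among those results and had drawn attention to DEK, SETD1B and BRD10, so the abundances and ratios of the member genes are given as a description, with no test. The material was total RNA of peripheral blood mononuclear cells, mainly lymphocytes and monocytes, from a rhesus macaque, Macaca mulatta. A single RNA sample gave both libraries, titled LongInsert and Regular, and the labels name no strain, age, treatment or time point for it. The libraries differed in preparation and instrument, with paired reads of 300 nt in one run and 75 nt in the other. The labels do not settle which run belongs to which title, so each direction refers to the title alone. There was 1 library of each kind, and no difference between them could be set against a spread between replicates.

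Chromatin regulators write, read and remove chemical marks on histones and DNA, and so set which genes a cell can transcribe. SETD1B is the catalytic subunit of a complex that methylates a lysine in the tail of histone H3 at active promoters. CBX1, also called HP1 beta, binds a different methylated lysine of histone H3 through its chromodomain and is a component of heterochromatin. TET2 oxidises methylcytosine in DNA, a step towards its removal, and is among the genes most often mutated in clonal blood cell expansions. DEK is a DNA-binding protein that shapes chromatin and acts on histones as a chaperone, and BRD10 carries a bromodomain, a module that recognises acetylated lysine.

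The tables give abundance as TPM, a value scaled for transcript length and for the library total, so levels of different genes can be compared within a library. A gene's level is the sum over its listed transcripts. The listed transcripts held 13.0% of the TPM total of LongInsert and 15.3% of that of Regular. A further transcript of a member gene among the rest was not analysed here. TPM keeps no record of reads, so depth is unknown and no counting interval is given. Of 38 marker genes for blood cell types, only ITGB3 (a platelet integrin, 3.29 TPM in LongInsert against 1.77 TPM in Regular) and HBA1 (a haemoglobin chain, 0.0093 and 0.00352 TPM) were found by symbol. Markers of T cells, B cells, natural killer cells and monocytes were not analysed here, so the labelled cell type could not be checked. For the level of a gene in a bulk RNA sample, fewer cells of a type and less RNA per cell cannot be told apart. Both libraries came from the same RNA, so the cells behind them were the same.

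All 5 genes had the higher TPM in LongInsert, by amounts that ran from under 2-fold for TET2 to more than 100-fold for DEK, CBX1 and SETD1B. Nothing is read from the shared direction, because the genes were chosen with the contrast known. It was also common among the 1310 genes whose mean over both libraries reached 1 TPM. After adding 1 TPM to both values, 50.8% of these were at least 2-fold higher in LongInsert and 19.8% at least 2-fold lower. DEK was the most abundant of the 5 genes in LongInsert, at 95.5 TPM, and had 0.799 TPM in Regular. BRD10 had 38.8 TPM in LongInsert against 6.17 TPM in Regular. TET2 had 38.2 TPM in LongInsert against 20.8 TPM in Regular, the highest of the 5 genes there. SETD1B had 26.4 TPM in LongInsert against 0.0036 TPM in Regular. CBX1, the lowest of the 5 in LongInsert, had 10.6 TPM there and 0.0173 TPM in Regular. The order of levels was therefore DEK, BRD10, TET2, SETD1B and CBX1 in LongInsert, with BRD10 and TET2 nearly level, and TET2, BRD10, DEK, CBX1 and SETD1B in Regular. No spread was available to say which neighbours in either order differ.

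**Figure D1:**
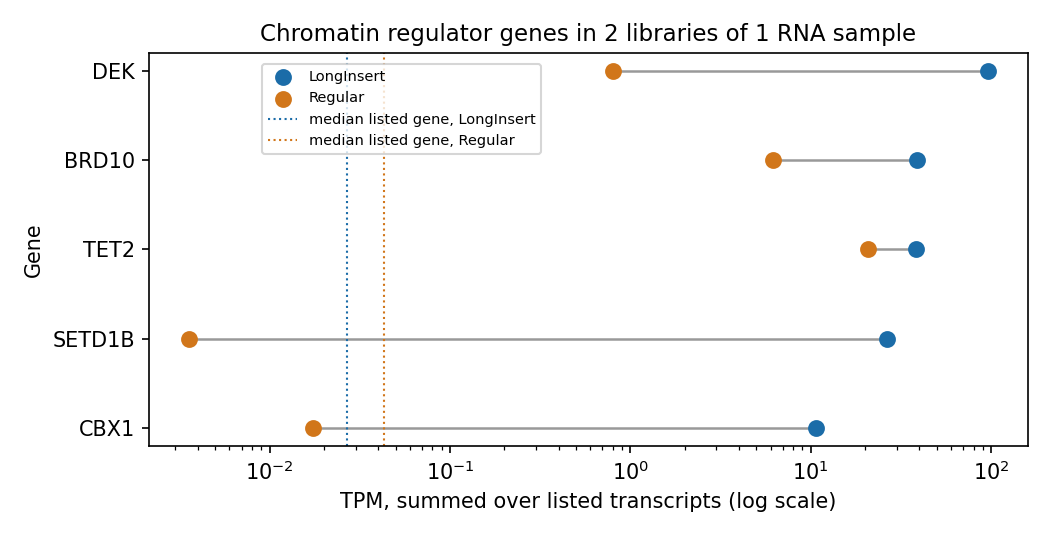
Abundance of the 5 member genes in LongInsert (blue) and Regular (orange), in TPM on a log axis, with a dotted line at the median of all 7904 listed genes of each library. Regular lies to the left of LongInsert for each gene, and for SETD1B (0.0036 TPM) and CBX1 (0.0173 TPM) it also lies to the left of the median listed gene of Regular.

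Set among all listed genes of the same library, the 5 genes were close together in LongInsert and far apart in Regular. In LongInsert they stood between percentile 91.9, for CBX1, and percentile 97.9, for DEK. In Regular TET2 stood at percentile 95.3, BRD10 at 92.4 and DEK at 86.4, whereas CBX1 stood at 23.3 and SETD1B at 3.8. The median listed gene had 0.027 TPM in LongInsert against 0.0434 TPM in Regular. In Regular the levels of SETD1B and CBX1 were thus below that of the median listed gene, itself near 0. The 5 genes together summed to 209.6 TPM in LongInsert against 27.8 TPM in Regular.

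Each log2 ratio is LongInsert over Regular after adding 1 TPM to both, which shrinks the ratios of low genes. DEK had the highest log2 ratio of the 5 at 5.75, which ranked 15 of the 1310 genes whose mean over both libraries reached 1 TPM. SETD1B followed with a log2 ratio of 4.77, ranked 32, and CBX1 with 3.52, ranked 92. BRD10 had a log2 ratio of 2.47, ranked 252. TET2 had a log2 ratio of 0.85, ranked 712 and so below the median of the 1310 genes, which was 1.04. A ratio of 2-fold or more in favour of LongInsert was thus reached by 4 of the 5 genes, and by 50.8% of the 1310 genes, and nothing is read from that comparison because the contrast was known when the genes were chosen. TET2, the gene that missed it, lay 0.15 below that limit on the log2 scale.

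The minimum mean bears on these counts. DEK, SETD1B and CBX1 were each under 1 TPM in Regular and passed the minimum through LongInsert alone, so that a higher value there was a condition of passing. BRD10 and TET2 were above 1 TPM in both libraries. The size of the ratio of the first 3 genes also depended on the pseudocount. With 0.1 TPM in place of 1 TPM the log2 ratio was 8.0 for SETD1B, 6.73 for DEK and 6.52 for CBX1, and with 5 TPM it was 2.65, 4.12 and 1.64. SETD1B therefore stood above DEK with the smallest pseudocount and below it with the others. The log2 ratio of BRD10 moved less, from 2.64 to 1.97, and that of TET2 from 0.87 to 0.74.

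**Figure D2:**
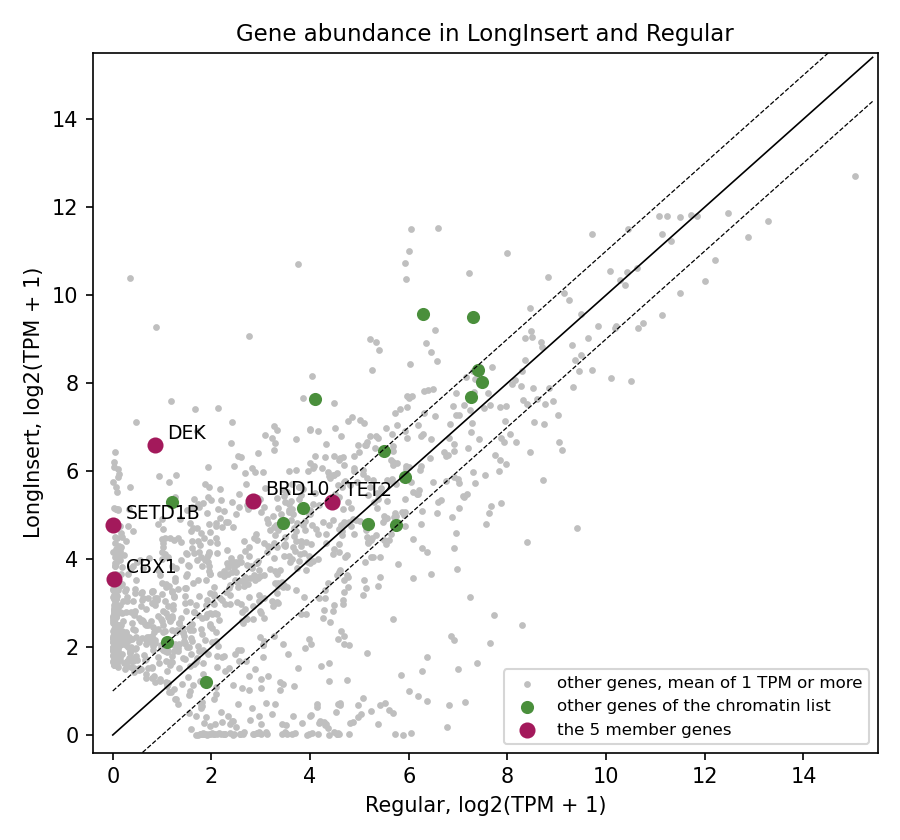
Gene abundance as log2(TPM + 1) in Regular (horizontal) and LongInsert (vertical) for the 1310 genes whose mean reached 1 TPM; the solid line marks equal values and the dashed lines a 2-fold difference. SETD1B and CBX1 lie at the left edge, DEK close to it, and TET2 lies between the solid and the upper dashed line.

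Few genes reached 10 TPM in LongInsert while staying under 0.1 TPM in Regular. They were 33 of the 656 genes that reached 10 TPM in LongInsert, or 5.03%. Among the 245 such genes with a symbol they were 5, or 2.04%. SETD1B and CBX1 were in that set, and the other 3 were CMC1, a factor of cytochrome c oxidase assembly, TMEM258, of the oligosaccharyltransferase complex, and PSMD13, of the proteasome. SETD1B had the lowest Regular value of these 5 genes. The limits of this description were set after the values were seen. The reverse, at least 10 TPM in Regular and under 0.1 TPM in LongInsert, was seen in 18 of 498 genes, or 3.61%, and no member was among them.

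The 5 genes had 7 listed transcripts. SETD1B (ENSMMUG00000012842), CBX1 (ENSMMUG00000019882) and DEK (ENSMMUG00000019763) had 1 each, ENSMMUT00000018016, ENSMMUT00000027937 and ENSMMUT00000027781, so their gene values are those of a single transcript model. TET2 (ENSMMUG00000017831) and BRD10 (ENSMMUG00000018306) had 2 each. For these 2 genes the abundance can also be read as isoform usage, the share of the gene's TPM that a transcript takes.

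In TET2 the same transcript led in both libraries. ENSMMUT00000025055 had 34.4 TPM in LongInsert against 20.8 TPM in Regular (log2 ratio 0.70), and took 89.9% and 99.9% of the gene. The minor transcript, ENSMMUT00000041916, had 3.88 TPM in LongInsert against 0.023 TPM in Regular (log2 ratio 2.25). Its share was 10.1% in LongInsert and 0.11% in Regular. The TET2 total therefore differed less between the libraries than its minor transcript did.

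In BRD10 the leading transcript was not the same. ENSMMUT00000046171 had 36.7 TPM in LongInsert against 1.97 TPM in Regular (log2 ratio 3.67), and its share went from 94.6% to 32.0%. ENSMMUT00000025723 had 2.08 TPM in LongInsert against 4.19 TPM in Regular (log2 ratio -0.75), and its share went from 5.36% to 68.0%. It was the only 1 of the 7 transcripts with the higher TPM in Regular, and it stayed within 2-fold on the log2(TPM + 1) scale. The higher total of BRD10 in LongInsert thus lay wholly in ENSMMUT00000046171. Of the 1500 transcripts whose mean reached 1 TPM, 51.8% had a LongInsert value higher by 2-fold or more and 20.5% a lower one by as much.

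**Figure D3:**
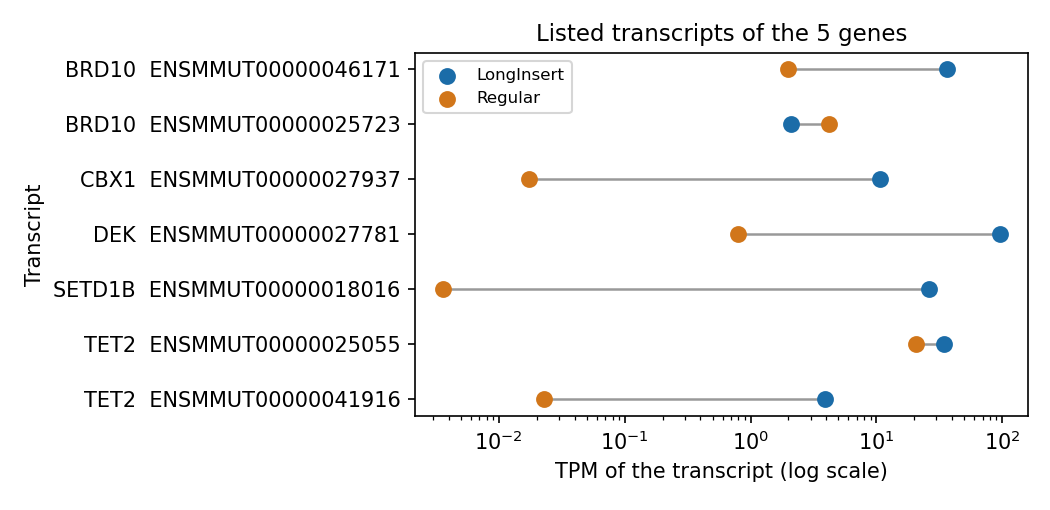
TPM of the 7 listed transcripts of the 5 genes in LongInsert (blue) and Regular (orange), on a log axis. The BRD10 transcript ENSMMUT00000025723 is the only one whose Regular value, 4.19 TPM, lies to the right of its LongInsert value, 2.08 TPM.

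Among 194 genes with several listed transcripts and a mean of at least 5 TPM, the leading transcript differed between the libraries in 27.8%. The usage difference of BRD10, 62.6 percentage points, ranked 12 of the 194, and that of TET2, 10.04 points, ranked 106. Each difference is that of the transcript leading in LongInsert. In genes with further transcripts another can shift by more, so these ranks compare LongInsert leaders only. Regular assigned BRD10 only 6.17 TPM in all, so its shares there rest on a low total at unknown depth.

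To place the 5 genes among other chromatin factors, a list of 443 symbols in 12 functional groups was drawn up. It held the members, and 21 of its genes, in 9 groups, were among the listed genes. Without the 5 members these were 16 genes, and 15 of them had a mean of 1 TPM or more. The exception was CABIN1, of a histone chaperone complex, at 0.0122 TPM in LongInsert against 0.011 TPM in Regular. All 15 were above 1 TPM in both libraries, unlike DEK, SETD1B and CBX1. Of the 15, LongInsert was at least 2-fold higher for 7, within 2-fold for 8 and at least 2-fold lower for 0, or for 4, 9 and 2 when ratios are centred on the median of abundant genes. Among all 1310 genes, 50.8% were higher and 19.8% lower. Among the 365 of these with a symbol, as all list genes have, 53.7% were higher and 9.59% lower. After centring, 38.5% of the 1310 genes were higher and 25.5% lower. The 15 genes had a median log2 ratio of 0.94, against 1.04 over the 1310 genes. Before centring, the share of higher genes and the median were both near the background, so neither sets chromatin genes apart.

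Of the genes that methylate histones or assemble such complexes, WDR5, a scaffold of the complexes that SETD1B belongs to, had 34.6 TPM in LongInsert against 13.5 TPM in Regular (log2 ratio 1.30). ASH1L, another histone H3 methyltransferase, was nearly equal at 57.1 and 59.5 TPM (log2 ratio -0.06). SETD1B and ASH1L, both histone methyltransferases with 1 listed transcript, thus differed from each other by over 4 log2 units in their ratios. The size of that gap depends on the pseudocount, since SETD1B was near 0 TPM in Regular. The log2 ratio of SETD1B was 8.0 with a pseudocount of 0.1 TPM and 2.65 with 5 TPM.

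Of the chromodomain and heterochromatin group, which holds CBX1, SMCHD1, a protein of the inactive X chromosome, had 198.5 TPM in LongInsert against 16.0 TPM in Regular (log2 ratio 3.55) next to the 3.52 of CBX1. Both of its transcripts were higher in LongInsert. MORF4L2, an MRG-family protein of acetyltransferase complexes, had 86.4 and 44.4 TPM (log2 ratio 0.94). RNF2, the ubiquitin ligase of Polycomb complexes, had 26.6 TPM in LongInsert against 35.2 TPM in Regular (log2 ratio -0.39). MORF4L2 and RNF2 were both within 2-fold.

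Of the DNA methylation group, only TET2 and UHRF1 were found by symbol. UHRF1, which recruits the maintenance DNA methyltransferase to replicated DNA, had 1.31 TPM in LongInsert against 2.69 TPM in Regular (log2 ratio -0.68). Of the bromodomain group, only BRD10 and TAF1L were found. TAF1L had 3.29 and 1.13 TPM (log2 ratio 1.01), and its reads can be shared with TAF1, of which it is a near-identical copy.

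The group of architectural proteins and histone chaperones that holds DEK had the most listed genes. NAP1L1, a nucleosome assembly chaperone, had 719.7 TPM in LongInsert against 156.6 TPM in Regular (log2 ratio 2.19). The nucleosome-binding protein gene HMGN1 had 311.6 and 168.6 TPM (log2 ratio 0.88). NPM1, a nucleolar histone chaperone, had 259.1 and 178.6 TPM (log2 ratio 0.53), and HMGB2, a DNA-bending protein, had 203.0 and 152.9 TPM (log2 ratio 0.41). In Regular DEK, at 0.799 TPM, was thus far below these 4 genes, whereas in LongInsert, at 95.5 TPM, it was nearer to the lowest of them. Genes of this group have processed copies in primate genomes, and reads shared with a copy would make their values uncertain.

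The remaining list genes were the single genes found in their groups. OGT, the enzyme that adds N-acetylglucosamine to nuclear proteins and binds TET proteins, had 755.2 TPM in LongInsert against 77.6 TPM in Regular (log2 ratio 3.27). GATAD2A, of the NuRD deacetylase complex, had 38.4 and 1.28 TPM (log2 ratio 4.11), between those of SETD1B and CBX1. INO80C, of the INO80 remodelling complex, had 27.1 and 9.99 TPM (log2 ratio 1.35). SGF29, of the SAGA acetyltransferase complex, had 26.2 and 52.5 TPM (log2 ratio -0.98), the lowest of the list.

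**Figure D4:**
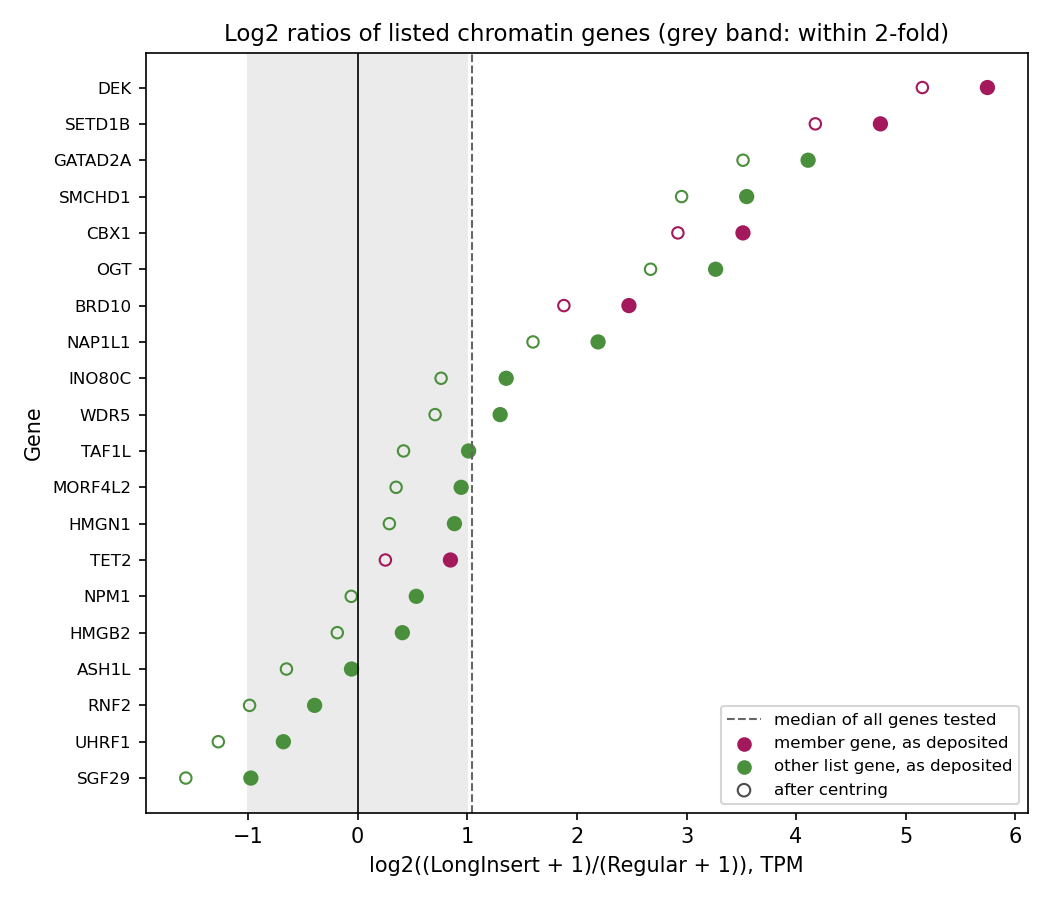
Log2 ratios of the 20 chromatin list genes whose mean reached 1 TPM, as deposited (filled) and after centring (open), with members in purple and other genes in green; the dashed line is the median of all genes tested, 1.04. DEK at 5.75 and SETD1B at 4.77 are at the top, and TET2 at 0.85 lies inside the grey band of 2-fold.

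Over the 625 genes whose mean reached 10 TPM, the median log2 ratio was 0.59. Relative to that median, DEK had a log2 ratio of 5.15, SETD1B 4.18, CBX1 2.92, BRD10 1.88 and TET2 0.25. The same 4 members were then at least 2-fold higher, against 38.5% of the 1310 genes. They were so too with pseudocounts of 0.1 and 5 TPM, against 54.2% and 32.1% of genes, and after rescaling the libraries to equal totals without the 10 most abundant genes, against 46.3%. Of the 15 other list genes, OGT, GATAD2A, SMCHD1 and NAP1L1 were still at least 2-fold higher, and WDR5, INO80C and TAF1L were no longer so. SGF29, with a log2 ratio of -1.57, and UHRF1, with -1.27, were then at least 2-fold lower, as were 25.5% of the 1310 genes. After rescaling only SGF29 was, with a log2 ratio of -1.27, against 22.8% of genes. With centring the ratios of NPM1 and HMGB2 changed sign, to -0.06 and -0.19.

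Of the list, 9 genes had several transcripts and a mean of at least 5 TPM, and in 3 of them, BRD10, NPM1 and NAP1L1, the leading transcript differed between the libraries. NPM1 resembled BRD10 in size. Its transcript ENSMMUT00000022164 took over 99% of the gene in LongInsert and 45.6% in Regular, where ENSMMUT00000022165 had 97.1 TPM. In NAP1L1, ENSMMUT00000046090 led in LongInsert with 47.4% and ENSMMUT00000028675 led in Regular with 56.9%. NAP1L1 also had a transcript, ENSMMUT00000046092, at 108.8 TPM in LongInsert against 5.49 TPM in Regular. TET2 was among the 6 genes with a shared leader, with INO80C, MORF4L2, RNF2, SGF29 and SMCHD1, whose leaders differed in usage by 0.14 to 13.5 points. The share with different leaders, 3 of 9, was close to the 27.8% over all 194 genes.

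**Figure D5:**
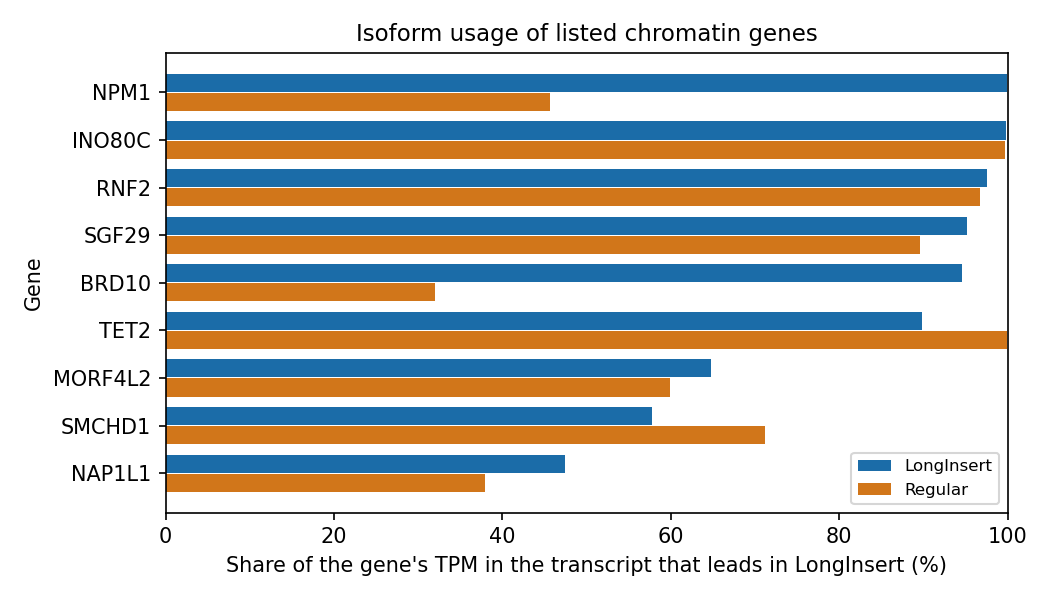
Share of each gene's TPM, in percent, held by the LongInsert leader, for the 9 chromatin list genes with several transcripts whose mean reached 5 TPM, in LongInsert (blue) and Regular (orange). The bars of BRD10 (94.6% and 32.0%) and NPM1 are far apart, and those of TET2 (89.9% and 99.9%) are close.

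The genes with a symbol whose levels in both libraries were nearest to those of each member were found by the Euclidean distance of log2(TPM + 1) over the 2 libraries. For BRD10 these were HPS5 (38.2 TPM in LongInsert against 6.32 TPM in Regular), GSAP (40.7 and 6.73 TPM) and MDN1 (36.7 and 5.56 TPM), at distances from 0.04 to 0.15. For TET2 they were UBE2N (43.7 and 21.9 TPM), TMEM214 (34.3 and 24.6 TPM) and CFAP92 (36.6 and 17.1 TPM), at 0.20 to 0.28. For CBX1 they were SETSIP (9.49 and 0.0419 TPM), ZNF839 (9.25 and 0.025 TPM) and GCSH (9.77 and 0.139 TPM), at 0.15 to 0.20. DEK and SETD1B had no gene with a symbol so near. The nearest to DEK were CMC1 (64.5 and 0.0756 TPM), TMEM258 (57.5 and 0.0768 TPM) and PTP4A1 (169.3 and 2.16 TPM), at 0.93 to 1.15. The nearest to SETD1B were PSMD13 (45.3 and 0.0551 TPM), TATDN2 (26.6 and 0.894 TPM) and XIAP (13.1 and 0.136 TPM), at 0.76 to 0.98. Genes without a symbol were left out of this search, so SETD1B was not isolated among all listed genes. ENSMMUG00000016824, which has no symbol, lay nearer to SETD1B than any of these. It had 0.011 TPM in Regular and, like SETD1B, a log2 ratio of 4.77. With 2 libraries of a single RNA sample, such likeness covers only the level in each of them.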

How the data were processed

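Transcript abundances were deposited by the authors as TPM, per the file headers, in a table for each library. CASAVA 1.8.2, STAR and Trimmomatic appear in the submitters' processing notes, with no role or order, and Isolator, an isoform quantifier, in the series title. Genome build, annotation and settings: not given in the sources used here. No listed value was exactly 0. Both tables held the same 9267 transcripts of 7904 genes, of which 724 matched a symbol in a table of Ensembl identifiers. From the TPM, gene sums, log2 ratios (pseudocount 1 TPM), a 2-fold limit, a minimum mean of 1 TPM and isoform shares (minimum mean 5 TPM) were computed with Python 3.11.15, pandas 2.3.3 and NumPy 2.4.6. The functions were tested on simulated data with 200 changed genes. These were drawn from abundant genes only, so ratios with a level near 0 TPM were not covered. Centring subtracted the median log2 ratio of genes whose mean reached 10 TPM. Rescaling gave the listed genes, without the 10 most abundant, equal totals. No test was made, since each group was 1 library. The genes named were the members, the chromatin list genes whose mean reached 1 TPM (at most 30) and the 3 genes with a symbol nearest to each member in abundance. Outside that rule, and chosen after their values were seen, are CABIN1 (the list gene under that mean), PSMD9 and ARHGEF38 (listed neighbours of members). So is ENSMMUG00000016824 (a gene without a symbol), and ITGB3 and HBA1 are the markers found. The members and lists were chosen with earlier results of these data known. No sequences were used, and coordinates of a RefSeq assembly served only to find which genes neighbour or overlap the members.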

Additional observations from a re-analysis of the deposited data

How the results depend on the processing

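Under 2 other pseudocounts, centring and rescaling, 4 members were at least 2-fold higher in LongInsert, as in the values given above. This is no check on them, since they were chosen with the contrast known and a pseudocount cannot change the sign of a ratio. The chromatin list with its members had 11 genes at least 2-fold higher in LongInsert, 0 lower and a median log2 ratio of 1.16, beside 50.8% higher, 19.8% lower and a median of 1.04 over all 1310 genes. The 11 include 4 members. Without the members, an alternative chosen after seeing the data, 7 were higher and the median was 0.94. The count of lower genes was 2 after centring and 1 after rescaling. The median of the list with its members was 1.39 with a pseudocount of 0.1 TPM and 0.99 with 5 TPM. It was 0.56 after centring, 0.91 after rescaling, 1.30 at a minimum mean of 10 TPM and 1.01 with no minimum. Over the 1310 genes the median was 0.44 after centring and 0.79 after rescaling, and over the 15 list genes without the members 0.35 and 0.65. At a minimum mean of 10 TPM it was 0.59 over 625 genes. With no minimum it was -0.008 over all 7904 genes, most of them near 0 TPM. TET2 and BRD10 both had 5 TPM or more in each library, so that minimum changed nothing in the leaders, and picking the BRD10 leader in Regular gave the same usage difference, as it must with 2 transcripts. No paired analysis was possible because each group held 1 library, and none could be left out. Depth is unknown, so a low TPM of SETD1B, CBX1 or DEK in Regular cannot be told from too few reads.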

Other observations

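The protein-coding genes next to each member on its chromosome were taken from RefSeq's order in the macaque assembly T2T-MMU8v2.0, which need not be the build of the tables, to see whether neighbours were listed. Of the 2 nearest on each side, PSMD9, near SETD1B, and ARHGEF38, near TET2, were found by symbol. PSMD9, a proteasome assembly chaperone, had 11.7 TPM in LongInsert against 86.8 TPM in Regular (log2 ratio -2.79), in the opposite direction to the 4.77 of SETD1B. ARHGEF38 had 0.0671 and 0.0112 TPM, near 0 in both libraries. In that assembly no protein-coding gene overlapped a member, whereas 6 genes of other kinds overlapped CBX1. Whether the counting used strand is not given in the sources used here, so reads of CBX1 and of genes that overlap it could not be told apart. This look at neighbours was added after the values were seen.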
